A study of Mus musculus with 12 samples.

Results

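Cardiomyocyte libraries labelled as wild type on a Western-type diet were compared with libraries labelled as wild type on chow, across all genes with enough counts, using 5 of the 12 libraries of a bulk RNA-seq study. The libraries were taken by their titles. The group WT_HFD holds replicates 1 and 2, labelled as male C57BL/6J mice given a high fat, high cholesterol diet, and the group WT_CD holds replicates 1 to 3, labelled as male C57BL/6J mice given standard chow. Replicate 3 of WT_HFD was left out because its file holds counts of the opposite strand. The study deals with heart failure with preserved ejection fraction and crosses this diet with the genotype of Apoe. The other groups are ApoeKO_HFD and ApoeKO_CD, 3 libraries each, labelled as male mice with the targeted allele B6.129P2-Apoe tm1Unc/J on the same diets. Feeding began at 7 to 8 weeks of age and lasted 7 weeks in all 4 groups. Whether replicates are separate animals or pools is not given in the labels, and p-values therefore reflect only how these libraries scatter.

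The adult heart muscle cell draws most of its energy from fatty acids, which enter through lipoprotein lipase and CD36, are carried into mitochondria by carnitine palmitoyltransferases and are burned by beta-oxidation. Fatty acids switch on this machinery through the nuclear receptor PPAR-alpha, while oxysterols act through LXR and insulin through SREBP-1 on lipid synthesis genes. Apolipoprotein E, the product of Apoe, clears lipoprotein remnants from plasma, and mice without it become hypercholesterolaemic on a Western diet.

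Between 23590612 and 46424614 counts fell on genes in each of the 5 libraries. Mitochondrial transcripts made up 57.4% to 66.9%, which left 9914711 to 16412505 counts on nuclear genes. Strand was checked on 2197 pairs of a coding gene and a non-coding partner on the opposite strand. The non-coding partners held 68.0% of these counts in the library left out (95% interval by Wilson's method 67.8% to 68.2%, which covers counting error only) and 0.443% to 0.705% in the other 11 libraries. The cardiomyocyte markers Myh6, Actc1, Tnnt2, Tnni3, Myl2, Myl3, Ryr2, Pln, Atp2a2 and Ttn, named ventricular markers below, were detected in all 5 libraries. Whether this list tells ventricular from atrial cells was not tested. Levels below are TMM-scaled CPM (counts relative to library size) without a length correction, so they compare libraries and not genes.

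Apoe checks the genotype labels and stood against them on chow. It had 18.9 and 8.43 CPM in the libraries labelled WT_HFD, against 2.91, 2.12 and 3.604 CPM in those labelled WT_CD. In the knockout groups it had 1.93, 3.02 and 3.15 CPM in ApoeKO_HFD, against 25.2, 23.9 and 6.92 CPM in ApoeKO_CD. Both WT_HFD libraries were thus above all WT_CD libraries, the WT_CD libraries lay at the level of ApoeKO_HFD, and all ApoeKO_CD libraries were above those labelled WT_CD. The log2 fold change of WT_HFD over WT_CD was 2.24 (SE 0.56, n = 2 and 3), which edgeR's quasi-likelihood test did not call (adjusted p = 0.201). DESeq2 called it at 2.23 (adjusted p = 0.0283), and so did edgeR on the 2 groups alone at 2.23 (adjusted p = 0.042). Counts were summed over the whole gene, transcripts of an interrupted allele included. Because the libraries labelled WT_CD have the Apoe level of ApoeKO_HFD, diet and Apoe genotype cannot be told apart in any gene below, and groups are named as the libraries are labelled.

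Few genes passed the test between WT_HFD and WT_CD. Of 16932 genes tested, 35 were called at an adjusted p under 0.05 (0.207% of all tested), with 9 higher (0.0532%) and 26 lower (0.154%) in WT_HFD. There were 2176 genes with an unadjusted p under 0.05 (12.9%). None of the 35 overlapped between the 2 groups, while 24.7% of all tested genes had no overlap. By annotation 21 of the 35 were protein-coding, and 13 carried predicted-gene or clone names or were pseudogenes. The count depended on single libraries: it was 1019 without WT_CD replicate 2, 4 without WT_HFD replicate 1 and 7 without WT_HFD replicate 2. WT_CD replicates 1 and 3 changed the count less, with 32 and 29 called genes when each was left out. Of these, 22 and 23 were among the 35, so the set of called genes changed more than its size. The 35 genes kept their direction in each of these 5 fits, and all 35 were called in the fit without WT_CD replicate 2.

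**Figure D1:**
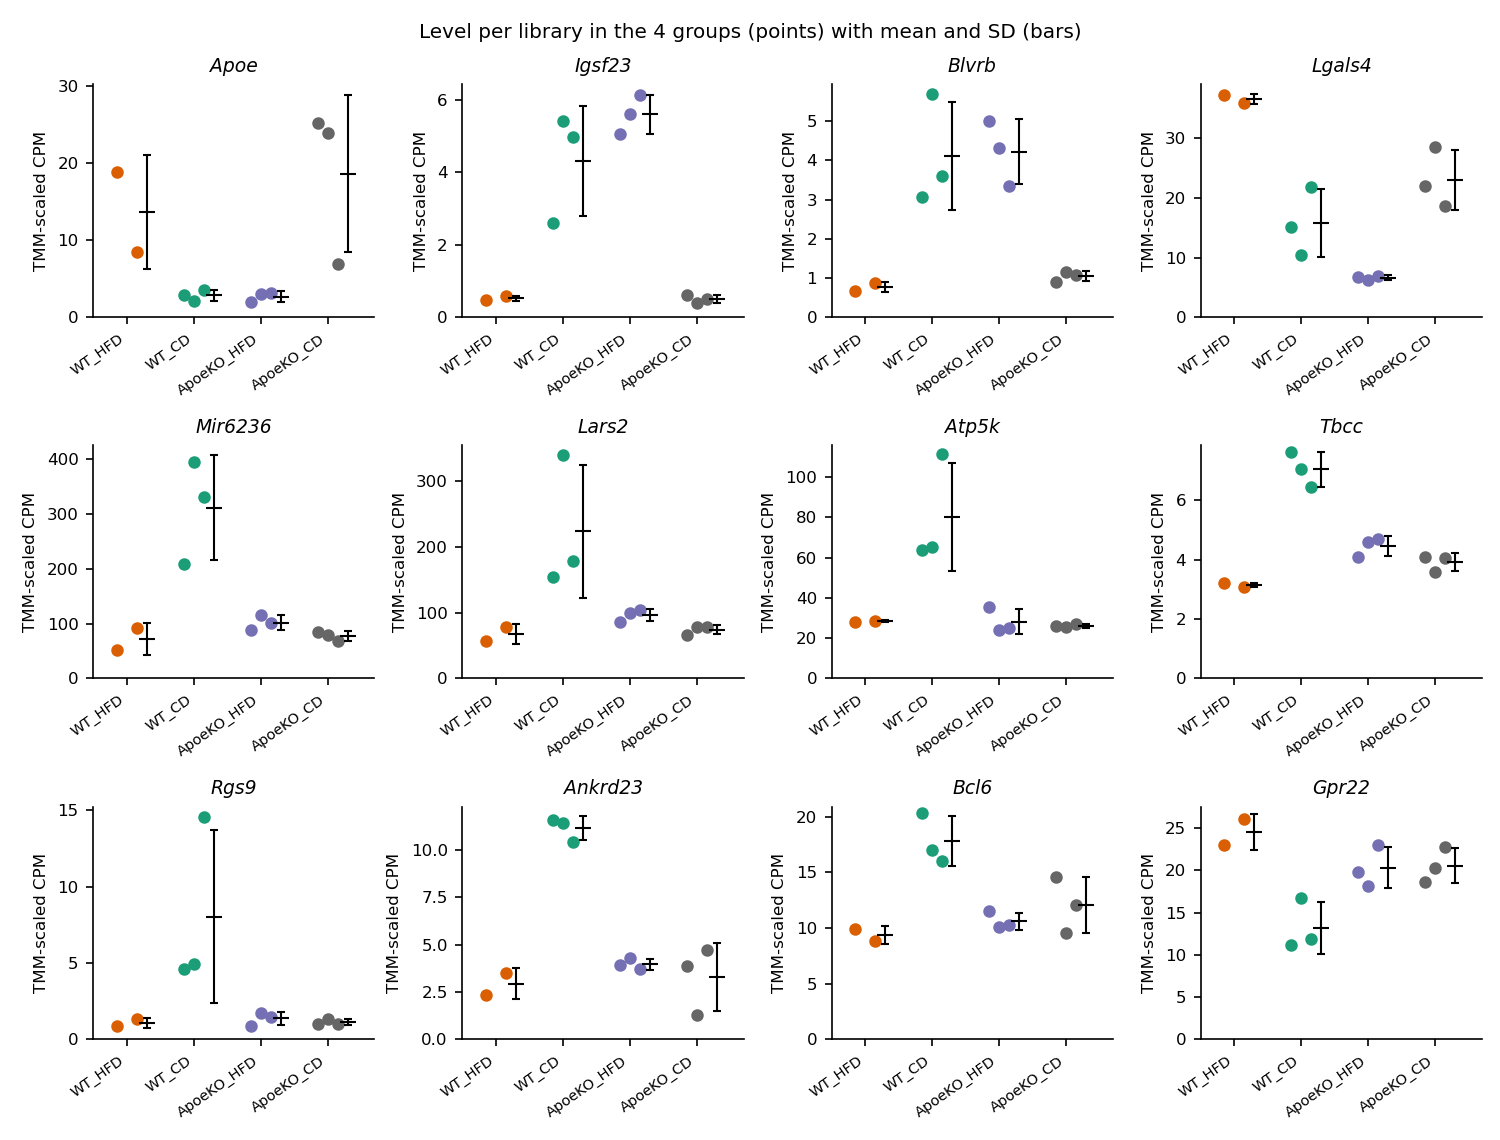
TMM-scaled CPM of 12 genes in the 11 libraries, with 1 point per library and the mean and SD of each group beside its points. Igsf23 and Blvrb are low in both WT_HFD and ApoeKO_CD, while Mir6236, Lars2, Atp5k, Tbcc, Rgs9 and Ankrd23 are high in WT_CD alone.

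Genes next to Apoe on chromosome 7 made up 9 of the 35. Of the 244 genes tested in the 10 Mb on either side of Apoe, 3.69% were called, against 0.156% of the 16688 tested elsewhere. Among them Igsf23, Pnmal2, Blvrb, Trappc6a, Ccdc8 and Ccdc9 were lower in WT_HFD, and Lgals4 and Bcam were higher. Ccdc9 was named after its values were seen. All 9 were also called in the test of the difference between the labelled diet effects under the 2 genotype labels. That test includes WT_HFD against WT_CD, by which the 9 were chosen. Under the knockout label each had a value of the opposite sign.

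Igsf23, a member of the immunoglobulin superfamily (ENSMUSG00000040498, chr7:19937305-19950756, minus strand, GRCm38), had the largest fall of the genes named by rule. It had 0.465 and 0.578 CPM in WT_HFD, against 2.59, 5.41 and 4.96 CPM in WT_CD. Both WT_HFD libraries were below the lowest WT_CD library by a wide margin. The log2 fold change was −3.03 (SE 0.34, adjusted p = 0.000914), and it was 3.43 (SE 0.30) under the knockout label. Igsf23 overlaps the predicted gene Gm44651 on the same strand.

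Blvrb encodes biliverdin reductase B, a flavin reductase of haem breakdown. It had 0.684 and 0.867 CPM in WT_HFD, against 3.06, 5.68 and 3.604 CPM in WT_CD (log2 fold change −2.39, SE 0.32, adjusted p = 0.00283). Pnmal2, of the paraneoplastic antigen family, had 1.12 and 1.49 CPM in WT_HFD, against 6.00, 7.33 and 4.20 CPM in WT_CD (log2 fold change −2.15, SE 0.28, adjusted p = 0.00283). In both genes the WT_HFD levels lay beside those of ApoeKO_CD, which were 0.899 to 1.15 CPM for Blvrb and 1.23 to 2.12 CPM for Pnmal2. The WT_CD levels lay beside those of ApoeKO_HFD, 3.35 to 4.99 CPM and 5.70 to 6.63 CPM.

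Trappc6a, a subunit of the TRAPP vesicle-tethering complex, had 1.40 and 1.05 CPM in WT_HFD, against 4.36, 4.31 and 4.09 CPM in WT_CD (log2 fold change −1.81, SE 0.29, adjusted p = 0.0119). Ccdc8, a partner of the cullin scaffold CUL7, had 1.04 and 1.09 CPM in WT_HFD, against 4.04, 3.92 and 3.04 CPM in WT_CD (−1.78, SE 0.29, adjusted p = 0.0121). The groups were well apart in both genes, and the spread within each was small. Ccdc9, a coiled-coil gene, had a log2 fold change of −1.19 (SE 0.22) at an adjusted p of 0.0317.

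The genes that rose in this region were Lgals4 and Bcam. Lgals4, which encodes the secreted lectin galectin-4, had 37.2 and 35.9 CPM in WT_HFD, against 15.1, 10.5 and 21.9 CPM in WT_CD (log2 fold change 1.21, SE 0.22, adjusted p = 0.0298). Bcam, a laminin receptor that lies beside Apoe, had 79.3 and 76.7 CPM in WT_HFD, against 53.0, 49.8 and 42.2 CPM in WT_CD (log2 fold change 0.69, SE 0.14, adjusted p = 0.0415). Both WT_HFD libraries were above all WT_CD libraries in each gene. Zfp30, a KRAB zinc finger repressor just past the 10 Mb border, had 3.42 and 3.98 CPM in WT_HFD, against 8.69, 10.7 and 11.4 CPM in WT_CD (−1.46, SE 0.20, adjusted p = 0.00283). Its value under the knockout label was 1.43 (SE 0.18), again of the opposite sign.

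**Figure D2:**
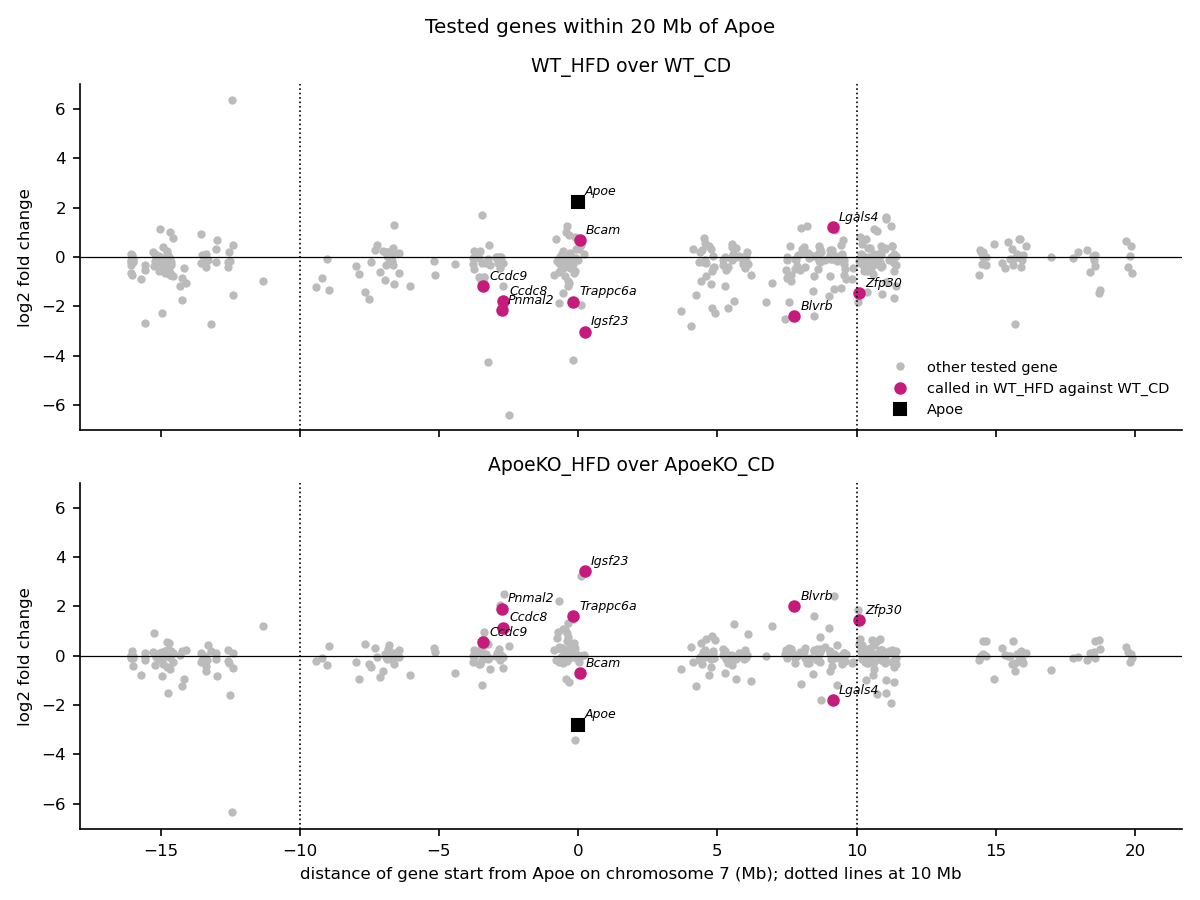
Log2 fold change of tested genes within 20 Mb of Apoe against its distance from Apoe in Mb, for WT_HFD over WT_CD above and ApoeKO_HFD over ApoeKO_CD below. The called genes drawn, in pink, and Apoe, the black square, lie on opposite sides of 0 in the 2 panels, as Igsf23 does at −3.03 above and 3.43 below.

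Calls in this region hold unequally when a library is left out. Igsf23 was called in all 5 such fits (−3.30 to −2.83). Pnmal2 (−2.34 to −1.92) and Blvrb (−2.57 to −2.09) were lost without WT_HFD replicate 1. Trappc6a (−1.97 to −1.56), Ccdc8 (−1.90 to −1.70) and Zfp30 (−1.58 to −1.31) were lost without either WT_HFD replicate, Lgals4 (0.98 to 1.51) without these or WT_CD replicate 1, and Ccdc9 (−1.41 to −0.96) and Bcam (0.60 to 0.76) without any library other than WT_CD replicate 2.

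Outside this region Mir6236, Lars2 and mt-Ti were among the genes called lower. Mir6236, annotated as a microRNA gene (ENSMUSG00000098973, chr9:110281287-110281409, plus strand, GRCm38), is shown because it had the highest mean level in WT_CD of the called genes. Its mature RNA is given below from RefSeq (GRCm38.p6, chr9:110281353-110281371, plus strand, 19 bases) with the seed, bases 2 to 8, in capitals.
mmu-miR-6236: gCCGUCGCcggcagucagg

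Mir6236 had 51.5 and 92.5 CPM in WT_HFD, against 208.0, 394.7 and 331.4 CPM in WT_CD. The groups were far apart, and the knockout groups lay with WT_HFD, at 87.8 to 115.3 CPM in ApoeKO_HFD and 68.0 to 85.1 CPM in ApoeKO_CD. The log2 fold change was −2.11 (SE 0.27, adjusted p = 0.00283). The counts cover the annotated precursor and do not separate a mature microRNA from longer RNA at this place.

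Lars2, the gene of mitochondrial leucyl-tRNA synthetase, had 56.4 and 77.9 CPM in WT_HFD, against 154.0, 340.2 and 178.3 CPM in WT_CD. WT_CD replicate 2 stood above the rest, and the groups did not overlap. The log2 fold change was −1.74 (SE 0.27, adjusted p = 0.0134). Gm42418, a non-coding gene over a ribosomal RNA repeat that was named after its values were seen, had −1.14 (SE 0.25, adjusted p = 0.0772) and was not called. Both genes together took 0.346% and 0.416% of nuclear counts in WT_HFD, against 0.623%, 1.18% and 0.650% in WT_CD, and the part of ribosomal RNA in these results was not tested.

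Gm15564, Gm20594 and mt-Ti were also called lower, and those with Gm names were chosen after their values were seen. Gm15564, which shares 28 of its 816 words of 25 bases with Lars2, had −2.42 (SE 0.37, adjusted p = 0.0119). Gm20594, which shares 61 of 425 such words with the mitochondrial 16S ribosomal RNA gene mt-Rnr2, had −1.76 (SE 0.28, adjusted p = 0.0196), while mt-Rnr2 itself had 0.20 (SE 0.31, adjusted p = 0.817). How reads from such shared words were counted was not checked, so these values are uncertain. The mitochondrial isoleucine tRNA gene mt-Ti, which overlaps mt-Nd1, had 3.09 and 2.05 CPM in WT_HFD, against 11.4, 11.1 and 7.47 CPM in WT_CD (−1.96, SE 0.35, adjusted p = 0.0221). Mir6236 was called in all 5 fits that left out a library (−2.55 to −1.70). Lars2 (−1.95 to −1.31) and Gm15564 (−2.71 to −1.91) were lost without either WT_HFD replicate, mt-Ti (−2.24 to −1.65) without these or WT_CD replicate 1, and Gm20594 (−2.14 to −1.38) without WT_CD replicate 3 or WT_HFD replicate 2.

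Coding genes of several functions elsewhere in the genome fell too. Atp5k (ENSMUSG00000050856) encodes subunit e of mitochondrial ATP synthase, which helps to join the enzyme into dimers. It had 28.0 and 28.7 CPM in WT_HFD, against 63.7, 65.5 and 111.3 CPM in WT_CD. WT_CD replicate 3 was highest, and no library of the other groups reached the lowest WT_CD value. The log2 fold change was −1.50 (SE 0.22, adjusted p = 0.00602).

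Muscle and signalling genes were also among those that fell. Ankrd23, a titin-binding ankyrin repeat protein of striated muscle, had 2.35 and 3.51 CPM in WT_HFD, against 11.6, 11.4 and 10.4 CPM in WT_CD (−1.92, SE 0.35, adjusted p = 0.0314). It overlaps Gm42417 on the same strand. Rgs9, a regulator that shortens G protein signals and is best known from retina and striatum, had 0.848 and 1.31 CPM in WT_HFD, against 4.64, 4.94 and 14.6 CPM in WT_CD (−2.88, SE 0.48, adjusted p = 0.0196). In Rgs9 WT_CD replicate 3 lay well above the other two, and both WT_HFD libraries were below all 3. Among genes named after their values were seen, the transcriptional repressor gene Bcl6 had 9.93 and 8.81 CPM in WT_HFD, against 20.3, 17.0 and 16.1 CPM in WT_CD (−0.93, SE 0.18, adjusted p = 0.039). Tbcc, the tubulin folding cofactor C gene, had 3.20 and 3.09 CPM in WT_HFD, against 7.61, 7.05 and 6.46 CPM in WT_CD (−1.16, SE 0.19, adjusted p = 0.0121). Ccdc124, a ribosome-associated coiled-coil gene also named so, fell with a log2 value of −1.08 (SE 0.17, adjusted p = 0.00735).

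Named genes that rose outside the Apoe region were Gpr22 and Tmed7. Gpr22, an orphan G protein-coupled receptor expressed in heart and brain, had 23.1 and 26.1 CPM in WT_HFD, against 11.1, 16.8 and 11.8 CPM in WT_CD (0.90, SE 0.17, adjusted p = 0.0384). Tmed7, a cargo receptor between endoplasmic reticulum and Golgi, had 18.8 and 19.6 CPM in WT_HFD, against 9.32, 12.7 and 8.75 CPM in WT_CD (0.91, SE 0.17, adjusted p = 0.0298). Neither gene overlapped between the groups. The WT_HFD mean of Tmed7 lay within the range of the knockout libraries. For Gpr22 both WT_HFD libraries were above all knockout libraries, which spanned 18.2 to 23.035 CPM on the diet and 18.6 to 22.7 CPM on chow. Tmed7 shares 814 of its 8664 words of 25 bases with Ticam2, so its counts are uncertain. The long non-coding RNA AC132253.9, outside the naming rule, rose with a log2 value of 1.30 (SE 0.20, adjusted p = 0.00732). The predicted gene Gm12703, also outside the rule, had 35 and 33 counts in WT_HFD, against 2, 2 and 0 counts in WT_CD.

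Promoters are shown for 4 of these genes, 3 that fell and 1 that rose, to set side by side regions of genes called outside the Apoe region. Each line is the 250 bases before the RefSeq start (GRCm38.p6), with capitals for matches on either strand to the GC box GGGCGG, the CCAAT box CCAAT, the TATA box TATAAA and the E box CACGTG. The windows are chr5:108434400-108434649 (minus strand) for Atp5k, chr17:46890371-46890620 (plus strand) for Tbcc, chr11:109298182-109298431 (minus strand) for Rgs9 and chr12:31713884-31714133 (minus strand) for Gpr22.
Atp5k promoter: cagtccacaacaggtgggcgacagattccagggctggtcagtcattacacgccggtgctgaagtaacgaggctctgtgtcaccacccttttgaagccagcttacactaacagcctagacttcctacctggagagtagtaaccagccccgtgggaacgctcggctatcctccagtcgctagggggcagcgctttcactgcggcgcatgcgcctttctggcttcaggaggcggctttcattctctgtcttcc
Tbcc promoter: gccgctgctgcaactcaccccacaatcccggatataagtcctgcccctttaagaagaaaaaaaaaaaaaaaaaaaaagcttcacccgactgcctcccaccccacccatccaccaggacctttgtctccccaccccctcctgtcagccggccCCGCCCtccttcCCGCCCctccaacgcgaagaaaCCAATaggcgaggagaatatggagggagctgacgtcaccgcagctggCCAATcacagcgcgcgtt
Rgs9 promoter: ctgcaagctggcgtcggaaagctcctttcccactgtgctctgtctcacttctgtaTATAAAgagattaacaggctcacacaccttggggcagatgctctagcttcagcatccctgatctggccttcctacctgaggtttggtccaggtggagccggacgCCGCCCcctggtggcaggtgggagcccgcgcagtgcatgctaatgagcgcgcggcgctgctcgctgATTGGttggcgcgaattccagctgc
Gpr22 promoter: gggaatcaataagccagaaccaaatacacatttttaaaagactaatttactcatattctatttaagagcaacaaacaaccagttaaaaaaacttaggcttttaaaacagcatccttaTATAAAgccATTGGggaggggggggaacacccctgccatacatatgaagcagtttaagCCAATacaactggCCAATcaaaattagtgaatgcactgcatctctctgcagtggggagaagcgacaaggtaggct

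The promoters had no common arrangement. Atp5k had none of the 4 motifs, Tbcc had 2 GC boxes and 2 CCAAT boxes, Rgs9 had 1 GC box, 1 CCAAT box and 1 TATA box, and Gpr22 had 3 CCAAT boxes and 1 TATA box. Of 13 called genes outside the 10 Mb window that were looked up, 9 had a promoter entry. Among these 9, a GC box was found in 5, a CCAAT box in 5, a TATA box in 2 and an E box in 1, against 35.4%, 37.5%, 14.3% and 6.86% of all 27025 genes with an entry. A match is a string of letters and not a measured binding site.

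Calls of the genes outside the region listed here rest on both WT_HFD libraries. Atp5k (−1.64 to −1.19), Rgs9 (−3.19 to −2.14), Tbcc (−1.23 to −1.09), Ccdc124 (−1.20 to −0.92) and AC132253.9 (1.11 to 1.62) were lost when either WT_HFD replicate was left out, and Bcl6 (−1.003 to −0.80) also without WT_CD replicate 1. Ankrd23 (−2.20 to −1.62), Gpr22 (0.78 to 1.10) and Tmed7 (0.80 to 1.09) kept their call in only 1 of the 5 fits, that without WT_CD replicate 2.

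The WT_CD libraries stood apart from all other libraries in most called genes outside the Apoe region. In 23 of these 26 genes (88.5%) every WT_CD library was outside the range of the other 8 libraries. The calls already set WT_CD apart from the 2 WT_HFD libraries, so this count is a description: it holds for 28.8% of the 4110 genes outside the 10 Mb window whose 2 groups did not overlap, and for 7.08% of all genes tested. In 17 of the 26 the WT_HFD mean fell within the range of the 6 knockout libraries, as it did in 77.3% of those 4110 genes. None of the 9 genes near Apoe had WT_CD outside the other 8. Apart from Lgals4, the ApoeKO_HFD libraries there overlapped the WT_CD range. In Lgals4 WT_CD (10.5 to 21.9 CPM) overlapped ApoeKO_CD (18.7 to 28.5 CPM) and lay above ApoeKO_HFD (6.22 to 7.00 CPM). The WT_CD libraries also had the lowest sample weights in voom, 0.68, 0.37 and 0.46, against 1.31 and 1.28 in WT_HFD, where a low weight means a larger scatter about the group mean. Whether another property of the WT_CD libraries moves with these genes was not tested.

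The same diet under the knockout label gave another picture. In ApoeKO_HFD against ApoeKO_CD, which shares no library with WT_HFD against WT_CD, 12 genes were called (0.0709% of those tested). Of the 12, 7 were among the 35, namely Igsf23, Pnmal2, Blvrb, Trappc6a, Lgals4, Bcam and Zfp30. Each of the 7 lay within 10 Mb of Apoe or, for Zfp30, just beyond, and had opposite signs under the 2 labels. The test of the difference between the 2 diet effects, taken as labelled, called 37 genes (0.219%), of which 24 were among the 35. That test includes WT_HFD against WT_CD, by which the 35 were chosen, so this overlap is partly built in and is a description. Of the 35 genes, 31 had a value of the opposite sign under the knockout label, as had 52.6% of all genes tested. Outside the 10 Mb window, 19 of the 26 genes had a value under 0.5 in size on the log2 scale there, and so had 85.6% of the 16688 genes tested outside it. Atp5k had 0.11 (SE 0.19) and Mir6236 0.39 (SE 0.22) under the knockout label, and for each the difference from the wild-type label was called. For Rgs9, Ankrd23, mt-Ti, Gpr22, Tmed7 and Bcl6 that difference was not called, so a difference between the labels was not shown.

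**Figure D3:**
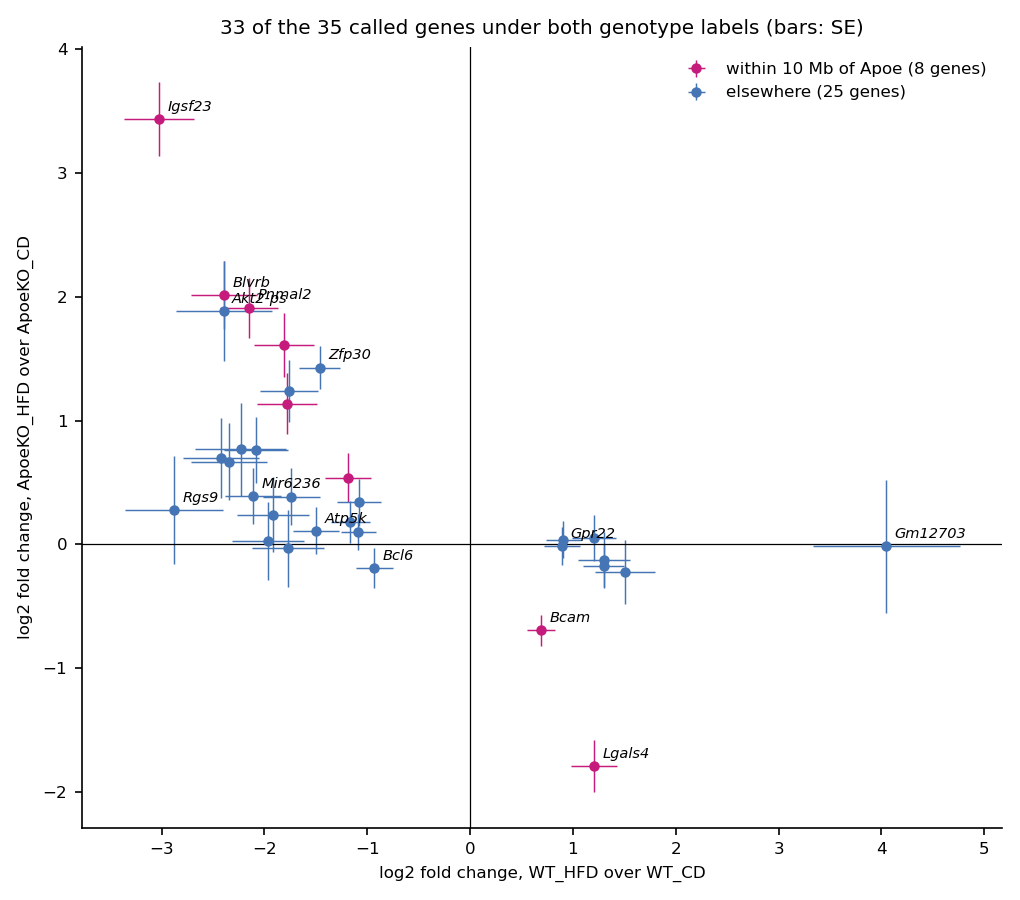
Log2 fold change of 33 of the 35 called genes in WT_HFD over WT_CD (horizontal) and in ApoeKO_HFD over ApoeKO_CD (vertical), with bars for the SE. The 8 drawn genes within 10 Mb of Apoe, in pink, lie on a falling diagonal through Igsf23 and Lgals4, while most others lie near 0 on the vertical axis.

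A pseudogene on another chromosome shares sequence with a gene near Apoe. Akt2-ps on chromosome 11, chosen with its values in view, had 0.164 and 0.311 CPM in WT_HFD, against 1.17, 1.53 and 1.16 CPM in WT_CD (−2.40, SE 0.47, adjusted p = 0.039). Under the knockout label it had 1.88 (SE 0.41), of the opposite sign, as the genes near Apoe had. It shares 1042 of its 1425 words of 25 bases (73.1%) with Akt2, the insulin-responsive kinase gene, which lies on chromosome 7 within the 10 Mb window. Akt2 itself had 45.4 and 43.9 CPM in WT_HFD, against 47.3, 40.2 and 38.1 CPM in WT_CD, which overlapped (0.09, SE 0.13, adjusted p = 0.804). Akt2-ps was lost without either WT_HFD replicate (−2.90 to −1.99).

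Gene lists of heart metabolism and stress were called about as rarely as other genes. Over 33 lists, 23 of pathways and 10 of cell type markers, 586 distinct members were tested of 617 in the files, and 2 were called (0.341%, against 0.207% of all genes tested), Atp5k among them. With so few calls, a list without one is not set apart from other genes. Across all genes tested 48.7% had a value above 0, with a median log2 fold change of −0.01. The lists are described by their counts and medians, and their members are not independent of each other.

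Genes of fatty acid use had medians near that of all genes, and none was called in the main test. Of 25 fatty acid oxidation enzymes 16 lay above 0, with a median of 0.07, and of 21 tested genes responsive to PPAR-alpha 8 lay above 0, with a median of −0.10. Cpt1b, the muscle carnitine palmitoyltransferase, had 1.64 and 1.40 CPM in WT_HFD, against 5.50, 2.35 and 3.94 CPM in WT_CD, with no overlap and a log2 fold change of −1.38 that missed the threshold (SE 0.33, adjusted p = 0.119). Etfb, the beta subunit of the electron transfer flavoprotein, had −1.12 (SE 0.31, adjusted p = 0.185). Over 15 alternative settings Cpt1b was called in 4 and Etfb in 2. Ucp2, a mitochondrial carrier gene, had 0.64 (SE 0.24, adjusted p = 0.282). Angptl4, an inhibitor of lipoprotein lipase that was chosen with its values in view, had 3.09 and 4.16 CPM in WT_HFD, against 11.7, 10.6 and 8.60 CPM in WT_CD (−1.50, SE 0.89, adjusted p = 0.515). Angptl4 was called with the replicate block on the 2 groups alone.

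Lipid synthesis genes lay mostly below 0. Of 21 tested LXR and SREBP-1 lipogenic genes 18 lay below 0, with a median of −0.27, and in 7 both WT_HFD libraries were below all WT_CD libraries (11.8% of all genes tested). None was called. Scd2, a stearoyl-CoA desaturase that makes monounsaturated fatty acids, had 9.27 and 6.54 CPM in WT_HFD, against 16.7, 17.6 and 10.02 CPM in WT_CD, with no overlap (−0.91, SE 0.24, adjusted p = 0.168). It had 1.73 (SE 0.23) under the knockout label, where the list's median was 0.26, and the difference of the 2 diet effects was called (−2.64, SE 0.34, adjusted p = 0.000647). Mlxipl, the gene of the glucose-sensing factor ChREBP, had −0.39 (SE 0.16, adjusted p = 0.321).

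Other fuel lists stayed near the median of all genes. Cholesterol synthesis and uptake genes had a median of 0.12 (15 of 24 above 0), glucose use genes −0.05 (12 of 27), ketone and branched-chain amino acid catabolism 0.11 (19 of 24), lipid droplet and lipase genes −0.10 (8 of 21), and insulin signalling and atrophy genes 0.07 (11 of 18). Sord, the sorbitol dehydrogenase gene of the polyol pathway, had 48.5 and 44.8 CPM in WT_HFD, against 33.2, 34.4 and 26.7 CPM in WT_CD (0.57, SE 0.15, adjusted p = 0.165). Pkm, the pyruvate kinase of muscle, had −0.44 (SE 0.15, adjusted p = 0.247), and the kinase gene Akt1 −0.51 (SE 0.17, adjusted p = 0.245). Their groups did not overlap, and none passed the test. The sterol synthesis enzyme genes Sc5d and Fdft1 had 0.51 (SE 0.18, adjusted p = 0.277) and 0.27 (SE 0.16, adjusted p = 0.48). Plin3 and Pnpla8, of lipid droplets and lipases, had log2 values of −0.50 (SE 0.17) and 0.51 (SE 0.18) at adjusted p of 0.247 and 0.257, and the phosphatase gene Ppm1k of branched-chain amino acid breakdown 0.61 (SE 0.22, adjusted p = 0.278).

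Among the listed respiratory chain genes only Atp5k was called in the main test. In other settings Ndufa1 was called by DESeq2 and with no filter, and Atp5o without WT_CD replicate 1. The 48 nuclear oxidative phosphorylation genes had a median of 0.01 with 27 above 0, and 1 was called lower, Atp5k. The 13 genes of the mitochondrial genome had a median of −0.01 with 6 above 0. Among them mt-Atp6, an ATP synthase subunit gene, had 45.7 and 46.2 CPM in WT_HFD, against 310.2, 105.3 and 106.5 CPM in WT_CD, which did not overlap but were widely spread (−1.92, SE 0.93, adjusted p = 0.44). The 32 cytosolic ribosomal protein genes had a median of −0.08 with 12 above 0, and Rpl19 had the smallest p among them, at −0.50 (SE 0.15, adjusted p = 0.213).

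**Figure D4:**
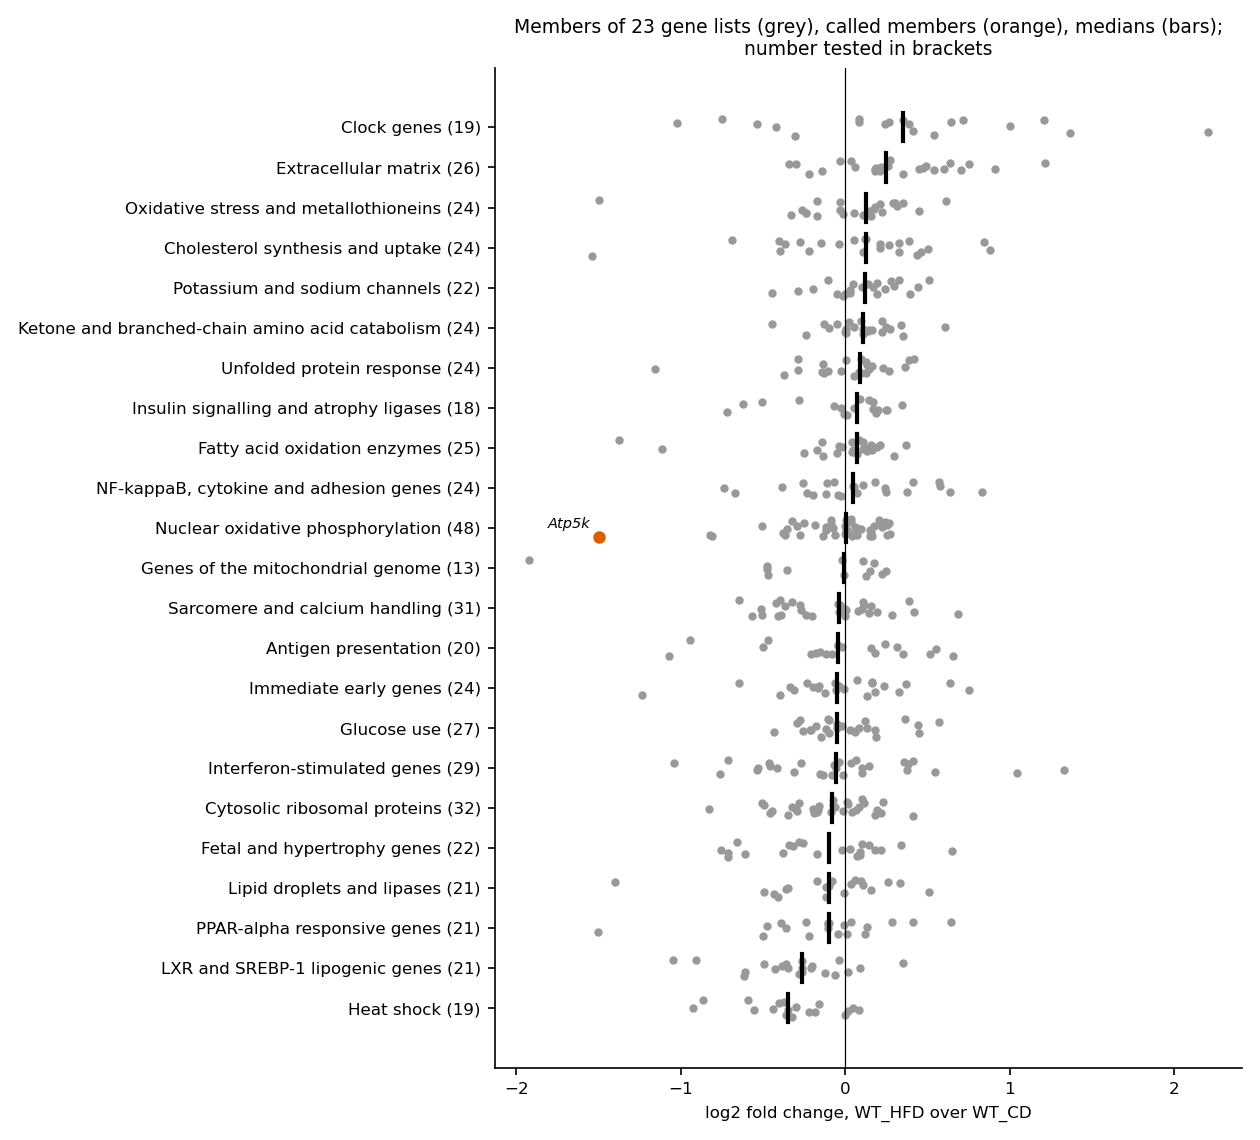
Log2 fold change of WT_HFD over WT_CD for the tested members of 23 gene lists, with 1 grey point per gene and a black bar at each median. Heat shock genes have the lowest median, −0.35, clock genes the highest, 0.35, and Atp5k, in orange, is the called member of the oxidative phosphorylation list. Of the tested list genes 2 are not drawn.

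Heat shock genes had the lowest median among the pathway lists, though not in every setting. Of 19 genes 16 lay below 0, with a median of −0.35, and in 11 both WT_HFD libraries were below all WT_CD libraries (11.8% of all genes tested), and 1 was called. Ubb, a polyubiquitin gene, had 41.3 and 43.1 CPM in WT_HFD, against 48.9, 65.2 and 72.2 CPM in WT_CD (−0.56, SE 0.16, adjusted p = 0.209). Hsph1, an HSP110 chaperone, had 17.2 and 23.9 CPM in WT_HFD, against 34.1, 27.5 and 31.4 CPM in WT_CD (−0.59, SE 0.21, adjusted p = 0.273), and Cryab, a small heat shock protein of muscle, had −0.44 (SE 0.18, adjusted p = 0.313). Ubb, Hsph1 and Cryab were named after their values were seen, and none of them overlapped between the groups. Under the knockout label the list's median was 0.05. Leaving out 1 library gave medians of −0.36 to −0.21, and the LXR and SREBP-1 list was lower without WT_CD replicate 3, at −0.26, as was the NF-kappaB list without WT_HFD replicate 1, at −0.46.

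Clock genes had the highest median, but it rested on WT_HFD replicate 1. Of 19 genes 14 lay above 0, with a median of 0.35, which was 0.049 without WT_HFD replicate 1 and 0.74 without replicate 2. Both WT_HFD libraries were above all WT_CD libraries in 2 of them (10.5%, against 12.8% of all genes tested) and below in 2 (10.5%, against 11.8%). Nr1d2, the gene of the repressor REV-ERB-beta, had 43.0 and 30.3 CPM in WT_HFD, against 15.2, 23.4 and 16.2 CPM in WT_CD (1.00, SE 0.23, adjusted p = 0.113). Dbp, a clock output factor chosen with its values in view, had 42.4 and 7.92 CPM in WT_HFD, against 1.45, 6.39 and 8.63 CPM in WT_CD, so that replicate 1 of WT_HFD stood apart and the groups overlapped. Tef, a related factor, had 0.54 (SE 0.22, adjusted p = 0.323). The labels used here give no hour of tissue collection.

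Matrix genes were mostly above 0 and sarcomere genes were mixed. Of 26 tested extracellular matrix genes 21 lay above 0, with a median of 0.25, and 7 had both WT_HFD libraries above all WT_CD libraries (12.8% of all genes tested). Dcn, the proteoglycan decorin of fibroblasts, had 6.51 and 4.54 CPM in WT_HFD, against 3.10, 2.27 and 1.73 CPM in WT_CD (1.21, SE 0.29, adjusted p = 0.119), and Col3a1, a fibrillar collagen gene, had 0.75 (SE 0.29, adjusted p = 0.287). The summed fibroblast markers were 18.2 to 19.0 CPM in WT_HFD, against 9.17 to 17.1 CPM in WT_CD, and their part in these values was not tested. Of 31 sarcomere and calcium handling genes 19 lay below 0, with a median of −0.04. In 9 of the 31 both WT_HFD libraries were below all WT_CD libraries (29.0%, against 11.8% of all genes tested). In 2 both were above (6.45%, against 12.8%). An unadjusted p under 0.05 was found in 12 of the 31, against 12.9% of all genes tested. Tnnt2, cardiac troponin T, had 3008 and 3318 CPM in WT_HFD, against 4792, 4354 and 5707 CPM in WT_CD (−0.65, SE 0.17, adjusted p = 0.165), and Tnnc1, troponin C, had −0.51 (SE 0.16, adjusted p = 0.216). Pln, the inhibitor of the calcium pump, had 0.69 (SE 0.25, adjusted p = 0.278). Mef2a, a muscle transcription factor gene, had 111.7 and 111.3 CPM in WT_HFD, against 60.0, 86.6 and 66.5 CPM in WT_CD (0.65, SE 0.16, adjusted p = 0.112), while the fetal and hypertrophy list that holds it had a median of −0.10 with 10 of 22 above 0. Potassium and sodium channel genes had a median of 0.12 (15 of 22 above 0), with Kcnd2, a channel of the transient outward current, at 0.51 (SE 0.17, adjusted p = 0.254).

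The inflammatory lists and the remaining stress lists had medians near that of all genes. Interferon-stimulated genes had a median of −0.06 (12 of 29 above 0), NF-kappaB, cytokine and adhesion genes 0.05 (13 of 24), antigen presentation genes −0.04 (8 of 20), immediate early genes −0.05 (10 of 24), unfolded protein response genes 0.09 (15 of 24) and oxidative stress genes 0.13 (14 of 24). No member was called, and the median of the NF-kappaB list was −0.46 without WT_HFD replicate 1 and 0.43 without replicate 2. Iigp1, an interferon-induced GTPase, had 13.2 and 13.5 CPM in WT_HFD, against 4.93, 8.03 and 6.49 CPM in WT_CD (1.05, SE 0.28, adjusted p = 0.171). Myc had 2.65 and 1.36 CPM in WT_HFD, against 3.85, 5.17 and 5.07 CPM in WT_CD (−1.24, SE 0.32, adjusted p = 0.142). Neither overlapped between the groups. Gclm, of glutathione synthesis, had 0.61 (SE 0.21, adjusted p = 0.248), the growth arrest gene Gadd45g −0.65 (SE 0.25, adjusted p = 0.296), and the chemokine gene Cxcl12 0.58 (SE 0.28, adjusted p = 0.399).

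Markers of other cells differed between libraries of the same group. Ventricular markers summed to 91118 to 95117 CPM in WT_HFD, against 89342 to 105033 CPM in WT_CD. Atrial markers summed to 208.7 and 21.3 CPM in WT_HFD, against 83.7 to 142.7 CPM in WT_CD. The light chain gene Myl7 and the atrial peptide gene Nppa, both chosen with their values in view, had 14.8 and 106.5 CPM in WT_HFD replicate 1, and 0.0667 and 6.47 CPM in replicate 2. WT_HFD therefore held the highest and the lowest atrial sum of the 5 libraries. Endothelial markers summed to 92.7 to 145.1 CPM in WT_HFD, against 58.6 to 137.2 CPM in WT_CD, macrophage markers to 4.27 to 15.7 CPM, against 8.18 to 14.5 CPM, and pericyte and smooth muscle markers to 42.6 to 59.7 CPM, against 31.7 to 48.0 CPM. Lymphocyte and neutrophil, erythroid and platelet, adipocyte and neural markers were near 0, at most 1.26 CPM in sum in any of the 5 libraries. No marker gene was called, and in bulk RNA fewer cells of a type and less RNA per cell cannot be told apart.

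**Figure D5:**
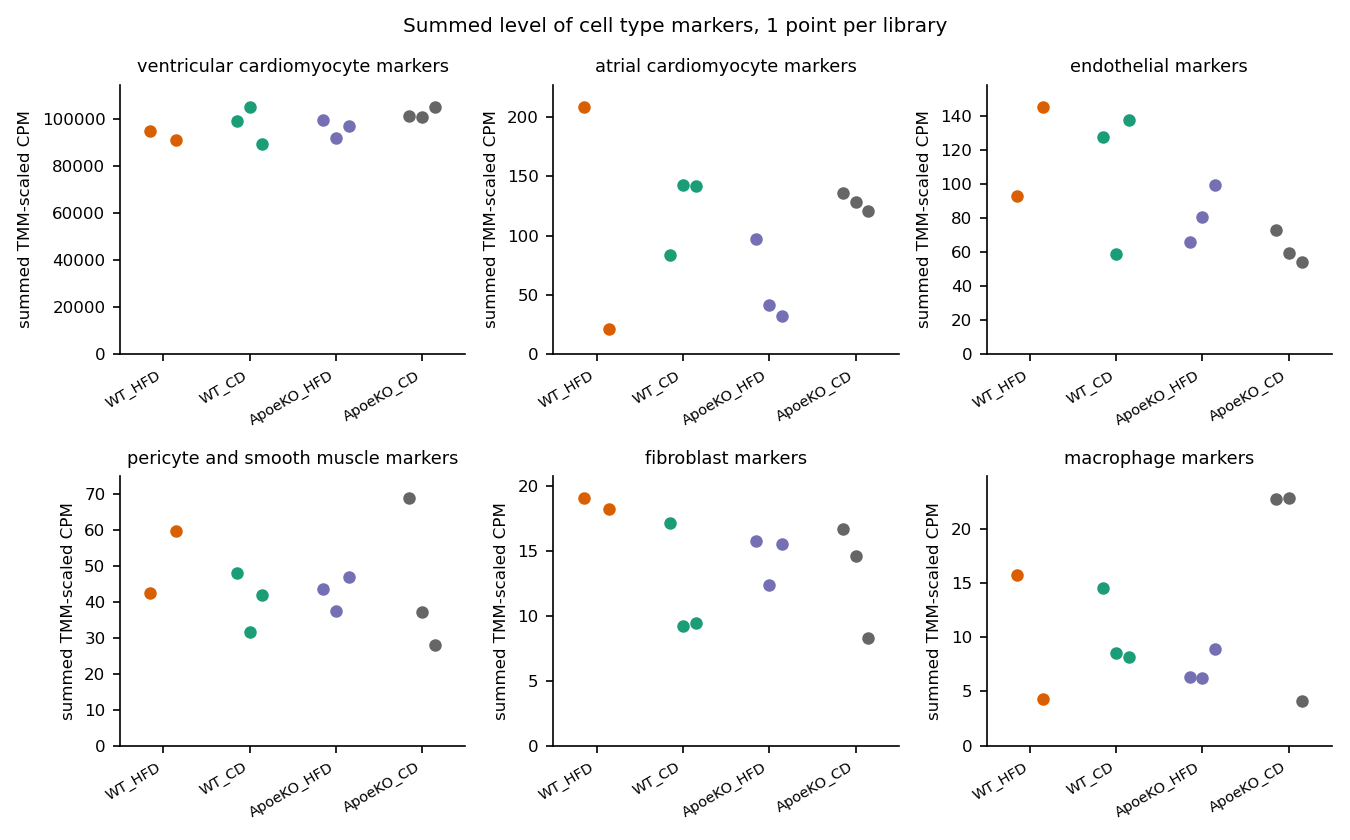
Summed TMM-scaled CPM of 6 lists of cell type markers, with 1 point per library in each of the 4 groups. Atrial markers run from 21.3 to 208.7 CPM within WT_HFD alone, while ventricular markers differ little between libraries.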

How the data were processed

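Cardiomyocyte RNA came from the Maxwell RSC simplyRNA kit and its libraries from the SMART-Seq Stranded kit, per the labels' protocols. Trimmomatic 0.39, STAR 2.7a and HTSeq 0.13.5 were run on build GRCm38 (mm10), per the submitters' processing notes. The deposited files hold raw whole-number counts per gene for 55335 gene IDs, and GENCODE M21 (GRCm38) gave symbols and positions for 55154 of them. Groups follow the labels.

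The test on these counts was edgeR's (version 4.0.16, R 4.3.3): TMM scaling, filterByExpr with its default settings, a mean for each group over 11 libraries and the robust quasi-likelihood F test, two-sided, with 7 residual degrees of freedom. P-values were adjusted by Benjamini-Hochberg over all 16932 genes, and genes were called under 0.05. SEs belong to fitted log2 fold changes and were derived from the quasi-likelihood F statistic. The method was tested on simulated data. Replicates of 1 group differed by more than sampling noise (28.0 to 72.3 chi-square units per degree of freedom within WT_HFD and WT_CD), so none was a duplicate. Deviations of same-numbered libraries correlated above 0.1 in 3 of 15 pairs, and the labels name nothing that the numbers share, so no block was used.

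Named genes are Apoe, up to 12 called genes per direction with the largest changes, no overlap and a log2 CPM averaging 1 or more (predicted genes and pseudogenes left out), and up to 4 called or else 2 members per list by smallest p. Members and lists were chosen with earlier results of these data known. Alternatives were RLE factors, DESeq2 1.42.0, library sizes from nuclear genes, no filter, 50 counts in 3 libraries, only the 2 groups, all 12 libraries, a replicate block, voom in limma 3.58.1, windows of 5 and 20 Mb and leaving out each library. Some genes that the rule takes are described only through their list, and a few results are not reported here.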

Additional observations from a re-analysis of the deposited data

Results flagged for a closer look

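By edgeR's test of the difference, the labelled diet effect differed between genotype labels in 24 of the 35 genes called for WT_HFD against WT_CD. It also differed in Apoe and Scd2. As WT_CD has the Apoe level of ApoeKO_HFD, diet and Apoe genotype cannot be told apart in these values. The test includes WT_HFD against WT_CD, by which the 35 were chosen, so their number is a description. Each value below is the log2 fold change under the wild-type label minus that under the knockout label. Near Apoe it was −6.46 for Igsf23, −4.41 for Blvrb, −4.06 for Pnmal2, −3.42 for Trappc6a, −2.92 for Ccdc8 and −1.73 for Ccdc9, and it was 5.03 for Apoe, 2.998 for Lgals4 and 1.38 for Bcam. Zfp30, just beyond, had −2.89. Adjusted p ranged from 5.27e-07 for Igsf23 to 0.0428 for Apoe.

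Among coding genes elsewhere the difference was −2.64 for Scd2, −1.61 for Atp5k, −1.35 for Tbcc and −1.19 for Ccdc124. It was −3.12 for Gm15564, −2.999 for Gm20594, −2.50 for Mir6236 and −2.12 for Lars2. The predicted and non-coding genes Gm24245, Gm25291, Gm1840 and Gm15543 had −3.01, −2.997, −2.84 and −1.42, the pseudogene Akt2-ps had −4.28, and AC132253.9 had 1.48. Apart from Scd2, whose values were −0.91 under the wild-type label and 1.73 under the knockout label, the value under the knockout label was smaller in size than that under the wild-type label for each gene of this paragraph.

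In the file of WT_HFD replicate 3, which enters no comparison, 68.0% of the counts on coding and non-coding strand pairs fell on the non-coding member, far above the other 11 libraries. The code in its column header is the one used in the ApoeKO_CD replicate 1 file.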

How the results depend on the processing

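Calls for WT_HFD against WT_CD (35, with 9 higher and 26 lower) rose to 168 (54 and 114) by DESeq2 and 272 (211 and 61) with no filter. They fell to 9 (2 and 7) with only the 2 groups fitted and to 1 (0 and 1) with all 12 libraries, where edgeR still gave 1787 genes at an unadjusted p under 0.05 and DESeq2 was not run. RLE factors gave 40, nuclear library sizes 34, the strict filter 43 and voom 45. With the replicate block the count was 19 (1 and 18), and with the block on the 2 groups alone, chosen after seeing the data, 21 (3 and 18). The block's numbers may not pair the libraries: the 2 pairs of WT_HFD and WT_CD correlated at 0.20 and 0.32. Leaving out 1 library gave 4 to 1019 calls, 0 to 657 higher and 4 to 362 lower, and with 1 WT_HFD library left that library is assumed to vary like the others. At 0 higher calls, without WT_HFD replicate 1, 1391 genes had an unadjusted p under 0.05. The 35 genes kept their direction in every setting that tested them.

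Within 10 Mb of Apoe 9 calls became 18 by DESeq2, 15 with no filter, 3 with 2 groups, 1 with 12 libraries, 5 with either block and 1 to 33 without 1 library; windows of 5 and 20 Mb held 6 and 10. The difference of diet effects (37) became 92 by DESeq2, 105 with no filter, 8 with 12 libraries, 72 by voom and 20 to 285 without 1 library. Under the knockout label 12 calls became 20, 26, 1 and 23 in those 4 settings and 11 to 14 without 1 library. Apoe was called at 2.23 by DESeq2 and with 2 groups and at 2.36 with the 2-group block, and had 1.60 to 2.76 without 1 library.

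Signs turned, in genes not called, with all 12 libraries for mt-Nd6 (4.16), Slc7a11 (0.67) and Ciita (2.54). Without 1 library they turned for Bmp10 (range −4.04 to 4.02), Kdr (−0.056 to 0.77), C1qa (−1.64 to 0.23), C1qb (−3.03 to 0.35) and Pf4 (−2.08 to 0.48). The causes were not tested. Of 462 medians of gene lists and marker lists under the alternatives, 85 moved by more than the SD between WT_CD replicates. The heat shock median stayed below 0 (−0.59 with all 12 libraries to −0.21) and the lipogenic median too (−0.48 to −0.15), while the clock median ran from 0.034 with all 12 libraries to 0.74. With 2 libraries in WT_HFD, a gene that missed the threshold is not shown to be unchanged.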
